A study of Mus musculus with 6 samples.

Results

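The Ly6 genes described here were the 7 genes Ly6a, Ly6c1, Ly6c2, Ly6d, Ly6e, Ly6g and Ly6k, taken by symbol from 6 RNA-seq libraries that each listed 30733 gene symbols. All 7 were found. The libraries came from sorted bone marrow cells that the labels call HSCs (haematopoietic stem cells, the source of all blood lineages). The mice were wild type (WT), and every one had received 5 Gy of total body irradiation, so no group here is unirradiated. MHCII-hi cells gave 3 libraries and MHCII-lo cells gave another 3, according to how much MHC class II, which presents peptides to CD4 T cells, they carried. The sort gates, the time after irradiation and the age of the mice were not given in the sources used here. This comparison asked which genes differed between MHCII-hi and MHCII-lo cells after irradiation.

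Ly6 genes encode small, cysteine-rich proteins of the Ly6/uPAR family, most of them held on the outer face of the cell membrane by a glycosylphosphatidylinositol (GPI) lipid anchor. In mouse marrow they serve above all as surface antigens that tell cell types apart. Ly6a is the stem cell antigen Sca-1, widely used in gates for mouse HSCs and also carried by T cells, plasma cells and endothelium. Ly6C, encoded by Ly6c1 and Ly6c2, marks monocytes, Ly6G marks neutrophils, and Ly6D marks early lymphoid progenitors that are turning to the B lineage. Ly6e is expressed in many cell types and is induced by interferon, and Ly6k is known mainly from testis.

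The 7 genes lie in one cluster on chromosome 15 (GRCm38), in the order Ly6d, Ly6k, Ly6e, Ly6a, Ly6c1, Ly6c2 and Ly6g, here taken to run from Psca at 74714839 to Gpihbp1 at 75599481. Ly6d spans 74762056 to 74763620 and Ly6k 74796874 to 74799986, both on the minus strand, and Ly6e, on the plus strand, spans 74955051 to 74959905. Ly6a, on the minus strand, spans 74994877 to 74998031. Ly6c1 spans 75044018 to 75048830, and Ly6c2 75108158 to 75111970, both on the minus strand. Ly6g, on the plus strand, spans 75155240 to 75159126. Another gene of the cluster, Ly6a2, lies between Ly6c2 and Ly6g, and it was added after its values were seen because its level was high. RefSeq lists Ly6a2 (older symbol I830127L07Rik) as protein coding, whereas GENCODE M21 holds it as a transcribed pseudogene.

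Ly6c1, Ly6c2, Ly6a2 and Ly6g, which follow each other along the chromosome, are related in sequence. Their promoters are printed from RefSeq (GRCm38.p6), since 3 of these 4 neighbours fell together in MHCII-hi cells, as described below. Of the 7 members, 3 had a promoter entry in the table used. The windows are chr15:75048788-75049087 (minus strand) for Ly6c1, chr15:75111922-75112221 (minus strand) for Ly6c2, chr15:75135079-75135378 (minus strand) for Ly6a2 and chr15:75155011-75155310 (plus strand) for Ly6g. Each runs 5′ to 3′ from 250 bases before to 50 bases after the first transcription start listed, and capitals mark the letters GAGGAAGT, a core bound by PU.1, a transcription factor that myeloid cells need.
Ly6c1: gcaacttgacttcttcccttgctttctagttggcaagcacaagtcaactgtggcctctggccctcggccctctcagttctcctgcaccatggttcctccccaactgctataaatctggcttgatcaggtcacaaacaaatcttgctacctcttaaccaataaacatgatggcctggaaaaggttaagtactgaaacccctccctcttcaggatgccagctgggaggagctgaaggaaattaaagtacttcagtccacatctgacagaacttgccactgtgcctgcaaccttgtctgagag
Ly6c2: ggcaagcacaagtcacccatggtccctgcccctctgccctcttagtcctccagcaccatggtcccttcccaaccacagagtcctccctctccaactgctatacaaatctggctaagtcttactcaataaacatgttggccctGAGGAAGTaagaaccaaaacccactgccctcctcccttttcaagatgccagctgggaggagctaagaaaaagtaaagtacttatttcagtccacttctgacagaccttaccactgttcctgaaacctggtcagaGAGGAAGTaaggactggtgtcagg
Ly6a2: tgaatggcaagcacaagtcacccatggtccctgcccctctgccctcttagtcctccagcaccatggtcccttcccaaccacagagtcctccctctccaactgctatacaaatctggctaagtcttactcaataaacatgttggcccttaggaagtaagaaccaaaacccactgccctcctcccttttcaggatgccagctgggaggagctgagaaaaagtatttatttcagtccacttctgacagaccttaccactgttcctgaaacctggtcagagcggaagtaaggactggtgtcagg
Ly6g: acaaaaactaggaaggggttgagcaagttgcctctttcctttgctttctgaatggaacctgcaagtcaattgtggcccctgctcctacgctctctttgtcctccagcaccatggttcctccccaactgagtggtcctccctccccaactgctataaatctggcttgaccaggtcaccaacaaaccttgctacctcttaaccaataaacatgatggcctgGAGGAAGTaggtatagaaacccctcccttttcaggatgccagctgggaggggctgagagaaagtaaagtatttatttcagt

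In pairwise alignments, the Ly6c2 and Ly6a2 windows were the most alike, with 290 of 295 aligned bases identical (98.3%) and a gap of 5 bases. The Ly6c1 window had 78.2% identity to Ly6c2 and 84.5% to Ly6g, and the Ly6c2 window had 80.7% to Ly6g. Counted from the first printed base of Ly6c2, the differences of Ly6a2 from Ly6c2 were G143T, A185G, A206G, C222T and A278C. Of these, G143T and A278C fall inside the capitals of Ly6c2, which is why Ly6a2 shows no match there. Searched on both strands, GAGGAAGT was present at positions -108 and +27 from the start in Ly6c2 and at -31 in Ly6g, and in 3.2% of all 32851 promoter windows of this length. The C/EBP letters TTGCNNAA (10.8% of all windows) matched once, in Ly6g. The STAT letters TTCNNNGAA (8.3%), the interferon-stimulated response element (3.44%) and the AP-1 letters TGANTCA (7.81%) had no match in these 4 windows. A match in these letters is a description and not a binding site.

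Values are FPKM (fragment counts scaled to transcript length and library depth), so levels can be compared between genes per length. Depth was not stated, and the smallest steps in the values gave an estimate of 2.05e+07 to 3.23e+07 fragments per library. Immunoglobulin genes took 23.4% to 23.7% of the summed FPKM in MHCII-hi libraries and 0.493% to 0.502% in MHCII-lo libraries. H2-Ab1, a class II chain of the sorted molecule, stood at 79.1 to 82.87 FPKM in MHCII-hi and 4.58 to 4.9 FPKM in MHCII-lo libraries. Procr, Slamf1, Mecom, Fgd5, Ctnnal1 and Hoxb5, genes used to define long-term HSCs, reached at most 0.72 FPKM in any library. The HSC label was thus not borne out by these markers, and the neutrophil genes S100a8 and S100a9 took 2.67% to 2.77% of summed FPKM in MHCII-hi and 8.5% to 8.7% in MHCII-lo. Whether each library had its own mice is not stated in the labels. The p-values therefore measure the spread among these 6 libraries alone, and that spread may be technical. A log2 change is the MHCII-hi mean less the MHCII-lo mean of log2(FPKM + 1), a scale that understates the change of low genes. Adjusted p-values come from limma with Benjamini-Hochberg adjustment over the 12110 genes averaging 1 FPKM or more.

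MHCII-hi cells had far more Ly6a and Ly6d and, except with quantile normalization, slightly more Ly6e, while Ly6g, and to a small extent Ly6c2, were lower in them. Ly6c1 did not pass the test. Ly6k averaged under 1 FPKM and was outside it. Of the 6 members tested, 3 were higher in MHCII-hi cells, against 25.5% of all genes tested, and 2 were lower, against 33.1% of all genes, so that 5 of 6 were called, against 58.6% of all genes. Their median log2 change was 0.21, against -0.04 over all genes. The values of MHCII-hi and MHCII-lo libraries did not overlap for these 5 members, nor for 65.8% of all genes tested (29% higher and 36.8% lower in MHCII-hi cells). With so many genes different, a member's being called says little by itself, and the sizes below carry the description. Of all calls, 43.5% were higher in MHCII-hi cells, and this share was 34.7% with quantile normalization, 61.8% with upper-quartile scaling and 69.7% when libraries were scaled without immunoglobulin genes. In a bulk sample fewer cells of a type and less RNA per cell cannot be told apart, and this holds for every difference below.

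**Figure D1:**
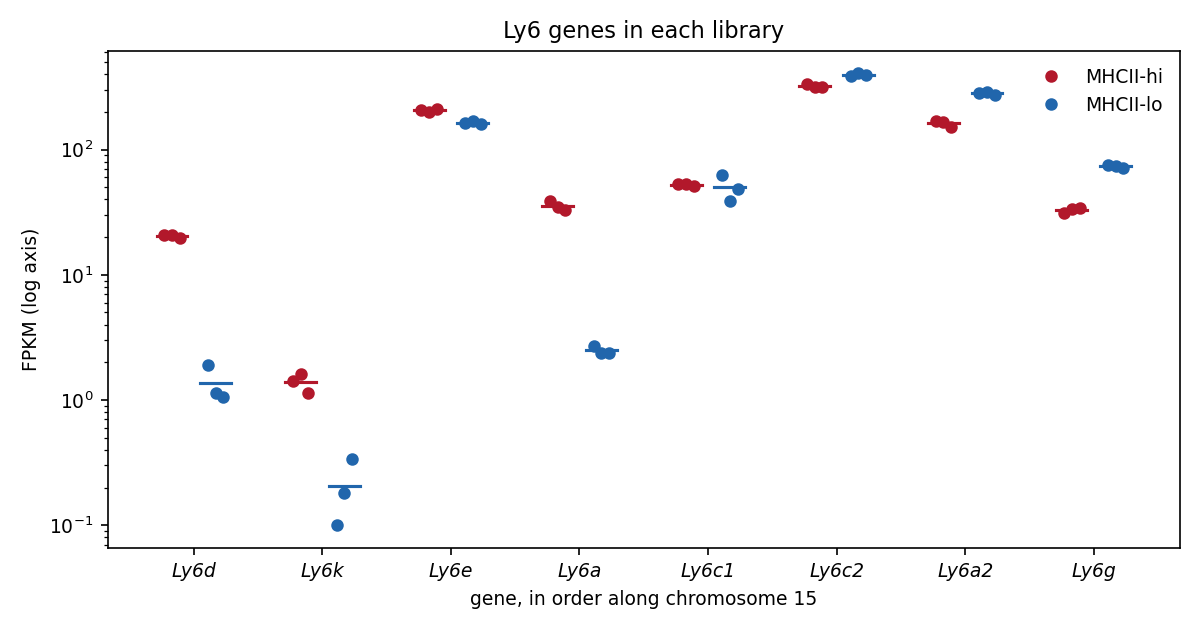
FPKM of 7 Ly6 members and Ly6a2 in each library (points; log axis), MHCII-hi left and MHCII-lo right within each gene, with group means as bars (n = 3 libraries each). Ly6a lies between 33.15 and 38.53 FPKM in MHCII-hi and between 2.38 and 2.72 FPKM in MHCII-lo, whereas the groups overlap for Ly6c1.

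The stem cell antigen gene Ly6a stood at 38.53, 34.93 and 33.15 FPKM in MHCII-hi libraries, against 2.72, 2.38 and 2.39 FPKM in MHCII-lo libraries. Every MHCII-hi library was far above every MHCII-lo library. The means differed 14.2-fold, with a log2 change of 3.38 (95% interval 3.22 to 3.54, SE 0.07, limma adjusted p = 6.55e-08). By log2 change it ranked 202 of 12110 genes from the most raised, and by level it ranked 1318 in MHCII-hi and 9410 in MHCII-lo cells. The MHCII-lo level corresponded to an estimated 69.1 to 73.7 fragments per library. Some of these may be reads of sequence shared with Ly6c1 or Ly6a2, as given below. This low level, and the fold difference that rests on it, are therefore uncertain. The cells of both groups carry the HSC label, and whether Sca-1 protein was part of the gate was not stated in the labels.

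The early lymphoid gene Ly6d had 20.76, 20.74 and 19.81 FPKM in MHCII-hi libraries, against 1.91, 1.13 and 1.05 FPKM in MHCII-lo libraries. The groups lay far apart, and MHCII-lo replicate 1 was the highest of its group. The means differed 15-fold (log2 change 3.20, SE 0.13, limma adjusted p = 2.54e-06), the log2 change ranking 208 of 12110 from the most raised. The MHCII-lo values rest on few reads, an estimated 19.1 to 32.0 fragments.

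Ly6k stood at 1.42, 1.60 and 1.13 FPKM in MHCII-hi libraries, against 0.10, 0.18 and 0.34 FPKM in MHCII-lo libraries. The groups did not overlap, but the values were low in both, at an estimated 21.5 to 38.0 fragments in MHCII-hi and 1.87 to 6.88 fragments in MHCII-lo. With no minimum on expression, 27171 genes were tested and Ly6k was higher in MHCII-hi cells (log2 change 0.98, limma adjusted p = 0.00148), as were 14.6% of those genes. The predicted gene Gm17189 overlaps Ly6k on the other strand. The libraries were stranded, but whether strand was used in counting is not given in the sources used here, so reads of the pair may not be told apart.

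Ly6e, one of the more abundant members, stood at 208.36, 198.63 and 209.42 FPKM in MHCII-hi libraries and at 163.29, 168.39 and 161.37 FPKM in MHCII-lo libraries. Each MHCII-hi library exceeded each MHCII-lo library, by a modest margin. The means differed 1.25-fold (log2 change 0.32, SE 0.03, limma adjusted p = 1.01e-04). This direction depended on scaling: with quantile normalization the log2 change was -0.044 (adjusted p = 0.158, against 1.43e-05 to 0.158 over all alternatives).

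The neutrophil antigen gene Ly6g had 31.42, 33.29 and 34.36 FPKM in MHCII-hi libraries, against 75.94, 73.84 and 70.82 FPKM in MHCII-lo libraries. All MHCII-hi values lay below all MHCII-lo values. The MHCII-lo mean was 2.23 times the MHCII-hi mean (log2 change -1.13, SE 0.04, limma adjusted p = 1.52e-06), and the gene ranked 96 of 12110 from the most lowered.

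Ly6c2, the Ly6C gene of monocytes, was the most abundant member in all 6 libraries. It stood at 331.11, 315.93 and 315.79 FPKM in MHCII-hi libraries and at 389.44, 406.16 and 392.61 FPKM in MHCII-lo libraries. The groups did not overlap, and the MHCII-hi mean was 0.81 times that of MHCII-lo. The log2 change was -0.30 (SE 0.03, limma adjusted p = 9.89e-05). It was -0.77 with quantile normalization and -0.13 when libraries were scaled without immunoglobulin genes, a scaling that moved the median of all genes by 0.15 to 0.11.

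Ly6c1, whose product is the other Ly6C protein and is also found on endothelium and T cells, was at 53.01, 52.97 and 51.31 FPKM in MHCII-hi libraries and at 62.27, 39.02 and 48.85 FPKM in MHCII-lo libraries. The MHCII-lo values spread on both sides of the MHCII-hi values, with a coefficient of variation of 1.85% in MHCII-hi and 23.3% in MHCII-lo. The log2 change was 0.09 with a 95% interval of -0.27 to 0.45 (limma adjusted p = 0.626), so these libraries leave room for a moderate difference in either direction. Leaving out MHCII-lo replicate 1 gave 0.26 (adjusted p = 0.0559) and leaving out MHCII-lo replicate 2 gave -0.072 (adjusted p = 0.564). Ly6c1 and Ly6c2 share sequence: of all stretches of 75 bases in the annotated Ly6c1 transcripts, 14.7% also occur in Ly6c2 and 4.37% in Ly6a, whereas the transcripts of Ly6d, Ly6e, Ly6g and Ly6k had none in common with another gene. How such reads were split in counting is not given in the sources used here, which makes the separate Ly6c1 and Ly6c2 levels uncertain. Ly6c2 exceeded Ly6c1 by 5.96 to 6.25 times in MHCII-hi libraries and by 6.25 to 10.4 times in MHCII-lo libraries. Their sum stood at 367.1 to 384.1 FPKM in MHCII-hi and 441.5 to 451.7 FPKM in MHCII-lo libraries, and as 1 row of the fit it was lower in MHCII-hi (log2 change -0.26, limma adjusted p = 9.39e-05).

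For Ly6a, 6.33% of stretches of 75 bases were shared with another gene, 5.87% with Ly6c1. The Ly6c1 level was 52.43 ± 0.97 FPKM in MHCII-hi and 50.05 ± 11.7 FPKM in MHCII-lo libraries (SD, n = 3).

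Ly6a2 had 169.47, 166.82 and 150.85 FPKM in MHCII-hi libraries, against 283.07, 289.56 and 273.49 FPKM in MHCII-lo libraries. By a log2 change of -0.79 (95% interval -0.91 to -0.68, limma adjusted p = 1.57e-05) it fell in MHCII-hi cells, with no overlap between the groups. It was more abundant than Ly6a in every library, by 4.4 to 4.78 times in MHCII-hi and by 104 to 122 times in MHCII-lo. None of its stretches of 75 bases occurred in the transcripts of the 7 members, and 2.49% of its stretches of 50 bases occurred in Ly6a.

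**Figure D2:**
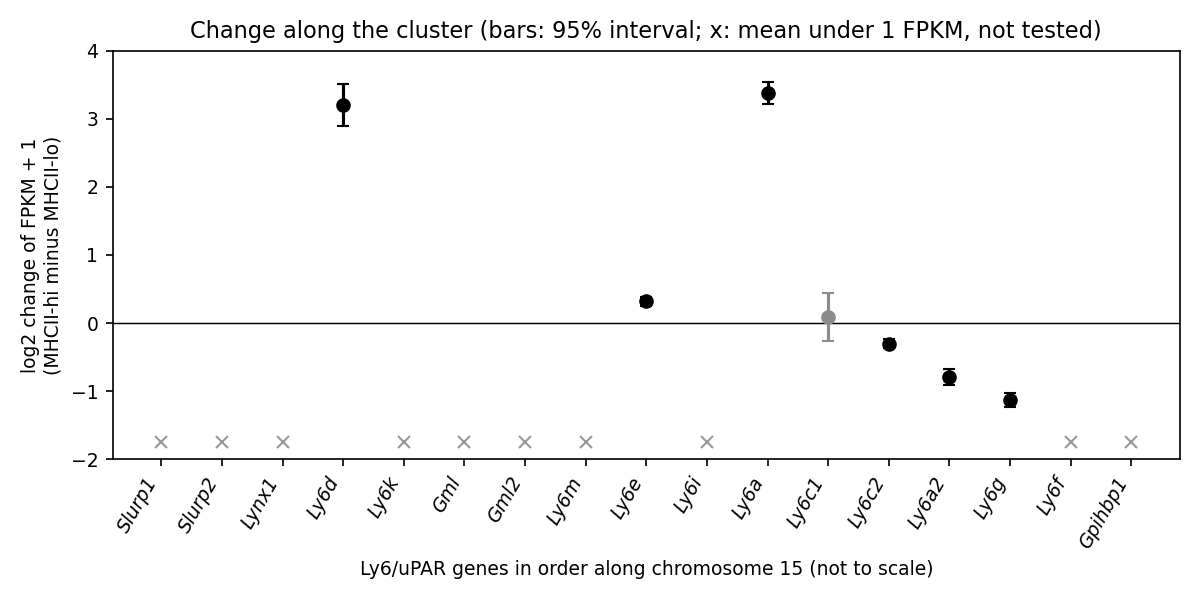
Log2 change (MHCII-hi minus MHCII-lo, vertical axis) of Ly6/uPAR genes in their order along chromosome 15, with 95% intervals from limma over 3 MHCII-hi and 3 MHCII-lo libraries. Crosses at the bottom stand for genes with a mean under 1 FPKM, which were not tested; Ly6c2 (-0.30), Ly6a2 (-0.79) and Ly6g (-1.13) fell side by side, and Ly6c1 (grey) did not pass the test.

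Along the chromosome, the members that rose (Ly6d, Ly6a and, except with quantile normalization, Ly6e) stood before Ly6c1, and the neighbours Ly6c2, Ly6a2 and Ly6g, which fell, stood after it. This order did not hold for all tested genes of the cluster. Them6 (log2 change -0.48) and Gm39556 (-0.60) also stood before Ly6c1, and both fell. The other Ly6/uPAR genes of the cluster had little RNA. Of 14 fixed for this purpose, 10 were measured and none reached a mean of 1 FPKM over the 6 libraries. Ly6i came closest, at 1.35, 0.77 and 0.99 FPKM in MHCII-hi and 0.66, 0.85 and 0.98 FPKM in MHCII-lo libraries, with overlapping groups. Lynx1, known as a modulator of nicotinic receptors in the brain, reached at most 0.51 FPKM, Slurp2 0.24, Ly6f 0.16, Ly6m 0.09, and Slurp1 and Gpihbp1 0.04 FPKM. Gml, Gml2 and Ly6g2 were listed at 0 in every library. The nearest tested genes on either side of the cluster were the pseudogene Gm15387, at 144 ± 5.02 FPKM in MHCII-hi and 175 ± 6.79 FPKM in MHCII-lo (log2 change -0.28, limma adjusted p = 7.37e-04), and the zinc finger gene Zfp41, at 1.56 ± 0.0462 and 1.19 ± 0.181 FPKM (SD, n = 3), which did not pass the test (log2 change 0.23, limma adjusted p = 0.052). Gm15387 does not adjoin the cluster, since Arc and Jrk, which averaged under 1 FPKM and were not tested, lie between.

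The sums of the 7 members overlapped between the groups, at 658.1 to 684.6 FPKM in MHCII-hi libraries and 677.4 to 695.7 FPKM in MHCII-lo libraries. With Ly6a2 added, the sums did not overlap, at 815.8 to 854.1 FPKM in MHCII-hi libraries and 950.9 to 980.7 FPKM in MHCII-lo libraries. The make-up of the sum of the 7 members was as follows. Ly6a supplied 5.31% ± 0.32 of it in MHCII-hi libraries and 0.363% ± 0.0249 in MHCII-lo libraries (SD, n = 3). Ly6d supplied 3.05% ± 0.0874 and 0.198% ± 0.0668, and Ly6e 30.7% ± 0.70 and 23.9% ± 0.458, in MHCII-hi and MHCII-lo libraries. Ly6g supplied 4.94% ± 0.308 in MHCII-hi and 10.7% ± 0.20 in MHCII-lo, and Ly6c2 48.0% ± 0.451 and 57.6% ± 1.44. Ly6c2 and Ly6e together made most of the family's signal in both groups, and the markers Ly6a and Ly6d were small parts of it even where they were high. No test was made of these shares, which depend on one another.

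**Figure D3:**
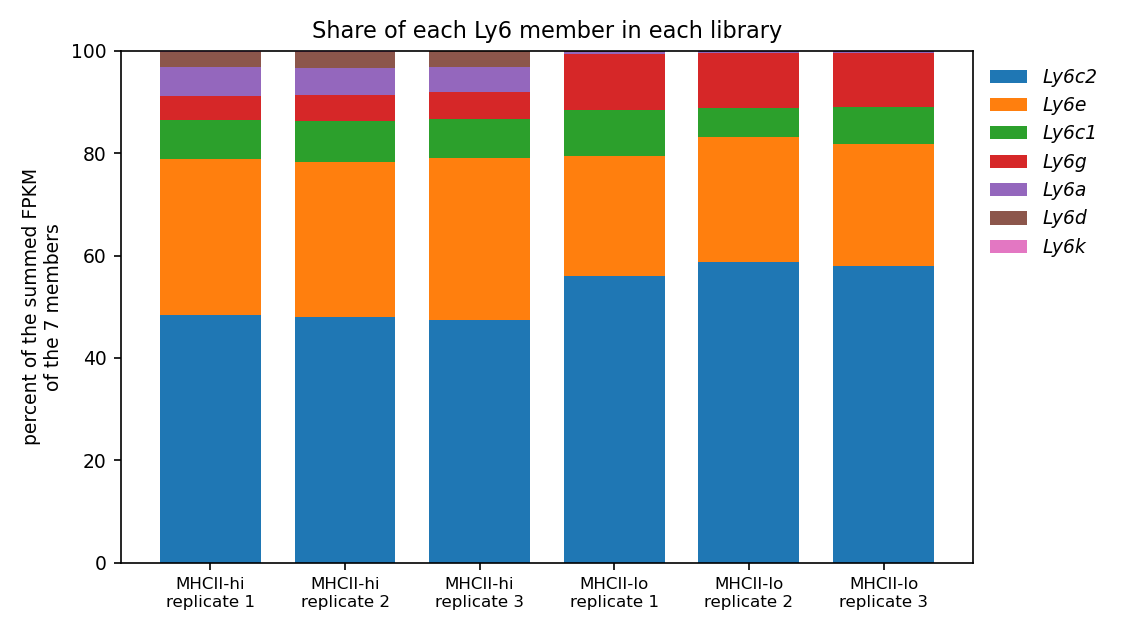
Percent of the summed FPKM of the 7 members that each member supplied, stacked for the 3 MHCII-hi libraries (left) and the 3 MHCII-lo libraries (right). Ly6c2 makes 47.5% to 48.4% of the sum in MHCII-hi and 56.0% to 58.8% in MHCII-lo libraries, and the Ly6a and Ly6d bands are visible mainly in MHCII-hi libraries as thin layers at the top.

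Levels within a group ran in one order with few ties. In MHCII-hi cells it was Ly6c2 (320.9 ± 8.80 FPKM), Ly6e (205.5 ± 5.95), Ly6c1 (52.43 ± 0.97), Ly6a (35.54 ± 2.74), Ly6g (33.02 ± 1.49), Ly6d (20.44 ± 0.543) and Ly6k (1.38 ± 0.237; SD, n = 3). Ly6a and Ly6g overlapped there, and the other neighbours did not. In MHCII-lo cells it was Ly6c2 (396.1 ± 8.88 FPKM), Ly6e (164.3 ± 3.63), Ly6g (73.53 ± 2.57), Ly6c1 (50.05 ± 11.7), Ly6a (2.50 ± 0.193), Ly6d (1.36 ± 0.475) and Ly6k (0.207 ± 0.122), with no overlap between neighbours. Ly6a stood close to Ly6g in MHCII-hi cells and far below it in every MHCII-lo library.

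Genes whose values followed the members most closely over the 6 libraries were sought by the distance between log2(FPKM + 1) values, each centred on its own mean. Nearest to Ly6a were Cd209a, a lectin of dendritic cells (distance 0.131), Ly6d (0.38), the B-lineage coactivator Pou2af1 (0.413), the lymphocyte adaptor Lax1 (0.437) and the transcription factor Irf4 (0.504). Cd209a, Pou2af1 and Irf4 averaged 0.6, 0.297 and 0.55 FPKM in MHCII-lo. They passed the minimum only through MHCII-hi, so their direction was set beforehand. Lax1 stood at 19.3 ± 1.63 FPKM in MHCII-hi and 1.38 ± 0.199 FPKM in MHCII-lo (SD, n = 3). Nearest to Ly6g were the neutrophil membrane protease Mmp25 (0.118), the granule protease Ctsg (0.122), Ppp1r3b (0.132), the C-type lectin Clec4e (0.133) and Mrgpra2b (0.134). Mmp25 stood at 8.78 ± 0.184 FPKM in MHCII-hi and 20.0 ± 0.391 FPKM in MHCII-lo (SD, n = 3). Nearest to Ly6c2 were the respiratory chain gene Uqcrc1 (0.0259), Atf6b (0.0278), Ipo5 (0.0302), Nup85 (0.0353) and the ribosomal protein gene Rpl15 (0.037). With 2 groups, this likeness reflects mainly the size of the difference between them.

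Markers of the cell types that carry each antigen moved as follows, each count standing for genes tested, beside a median log2 change of -0.04 over all genes. All 12 neutrophil markers fell, with a median log2 change of -1.34. Their mean FPKM in MHCII-lo was 1.47 to 4.12 times that in MHCII-hi, with a median of 2.54, and Ly6g at 2.23 lay within this range. Mmp8, the neutrophil collagenase, stood at 144.3 ± 0.961 FPKM in MHCII-hi and 594.7 ± 6.90 FPKM in MHCII-lo (SD, n = 3). Chil3 was at 730.4 ± 8.85 and 2386 ± 32.8 FPKM, and the iron-binding protein gene Lcn2 at 217.4 ± 0.93 and 593.2 ± 0.371 FPKM, in MHCII-hi and MHCII-lo libraries. The alarmin gene S100a9 reached 6575 ± 127 FPKM in MHCII-hi and 16860 ± 163 FPKM in MHCII-lo. Summed over the list the level was 16230 to 16640 FPKM in MHCII-hi and 40040 to 40710 FPKM in MHCII-lo libraries, none of the 12 being at 0. Its part in the Ly6g difference was not tested.

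Of 12 monocyte markers, 7 fell, 4 rose and 1 did not pass (median log2 change -0.28), so the list moved both ways while Ly6c2 fell slightly. The coagulation factor gene F13a1 stood at 95.82 ± 0.517 FPKM in MHCII-hi and 169.8 ± 2.13 FPKM in MHCII-lo, and Cd14, the endotoxin co-receptor, at 31.83 ± 0.523 and 57.07 ± 1.36 FPKM (SD, n = 3). The lysozyme gene Lyz2, which neutrophils express as well, was at 1763 ± 28.9 FPKM in MHCII-hi and 2652 ± 15.4 FPKM in MHCII-lo. The fractalkine receptor gene Cx3cr1 moved the other way, at 5.71 ± 0.508 FPKM in MHCII-hi and 1.997 ± 0.0473 FPKM in MHCII-lo. The summed level was 2251 to 2299 FPKM in MHCII-hi and 3284 to 3307 FPKM in MHCII-lo libraries. Whether it bears on the Ly6c2 difference was not tested.

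Lymphoid markers stood higher beside Ly6a and Ly6d. All 6 tested of 12 B lineage and early lymphoid markers rose (median log2 change 2.03), of which 3 passed the minimum only through MHCII-hi. The direction of these 3, Cd79a among them, was set beforehand. Dntt, the terminal transferase of early lymphoid cells, stood at 12.15 ± 0.457 FPKM in MHCII-hi and 1.38 ± 0.252 FPKM in MHCII-lo, and the interleukin-7 receptor gene Il7r at 6.39 ± 0.216 and 1.84 ± 0.223 FPKM (SD, n = 3). Cd79a, a chain of the B cell receptor, was at 24.34 ± 0.69 FPKM in MHCII-hi and 0.28 ± 0.145 FPKM in MHCII-lo. The list summed to 73.37 to 74.84 FPKM in MHCII-hi and 10.26 to 12.29 FPKM in MHCII-lo libraries. Among 12 plasma cell markers 11 rose and 1 fell (median log2 change 2.31), 8 of them passing only through MHCII-hi. The direction of these 8, Sdc1, Pou2af1 and Irf4 among them, was set beforehand. The count and the median rest largely on these genes. The list summed to 1589 to 1600 FPKM in MHCII-hi and 154.5 to 157.9 FPKM in MHCII-lo libraries, most of it Jchain, the joining chain of secreted antibodies, at 1342 ± 13 and 14.25 ± 1.45 FPKM. Sdc1, the plasma cell antigen CD138, stood at 5.29 ± 0.157 FPKM in MHCII-hi and 0.393 ± 0.00577 FPKM in MHCII-lo. Pou2af1 and Irf4, of the same 8, averaged 15.46 and 19.51 FPKM in MHCII-hi libraries and 0.297 and 0.55 FPKM in MHCII-lo libraries. Their log2 changes were 3.67 (SE 0.07) and 3.73 (SE 0.09).

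Among plasmacytoid dendritic cell markers 7 of 8 tested rose and 1 did not pass (median 0.76; summed level 88.07 to 99.12 FPKM in MHCII-hi and 58.53 to 60.11 FPKM in MHCII-lo). Siglech, a surface lectin of these cells, stood at 3.86 ± 0.35 FPKM in MHCII-hi and 0.56 ± 0.0954 FPKM in MHCII-lo (SD, n = 3). The transcription factor genes Runx2, Irf8 and Spib had log2 changes of 0.82, 0.52 and 1.89. Siglech and Spib were among 3 of the 8 that passed the minimum only through MHCII-hi, so their direction was set beforehand. All 8 tested T cell markers rose (median 1.16), with the T cell receptor chain Trbc2 at 16.41 ± 0.806 FPKM in MHCII-hi and 5.78 ± 0.447 FPKM in MHCII-lo. The T cell list summed to 57.63 to 59.33 FPKM in MHCII-hi and 17.98 to 20.15 FPKM in MHCII-lo libraries. The T cell kinase gene Lck and the receptor genes Cd3g and Trac had log2 changes of 1.51, 1.07 and 1.64. Endothelial markers were scarce, with 4 of 12 tested, of which 3 rose and 1 did not pass, and the tight junction gene Cldn5 was listed at 0 in all libraries. They summed to 24.92 to 26.35 FPKM in MHCII-hi and 15.49 to 15.86 FPKM in MHCII-lo, with Pecam1, an adhesion molecule that platelets and leukocytes also carry, at 12.22 ± 0.433 and 7.25 ± 0.308 FPKM, and Eng and Tie1 with log2 changes of 0.73 and 0.58. The part of any of these lists in the Ly6a and Ly6d differences was not tested.

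Of 12 stem cell markers, 6 were tested, 5 rose and 1 did not pass (median log2 change 0.37), and they summed to 123.3 to 126.3 FPKM in MHCII-hi and 99.26 to 103.9 FPKM in MHCII-lo libraries. Cd34, a surface antigen of progenitors, stood at 15.46 ± 0.395 FPKM in MHCII-hi and 10.05 ± 0.181 FPKM in MHCII-lo, and the transcription factor gene Meis1 at 2.48 ± 0.133 and 1.26 ± 0.148 FPKM (SD, n = 3). The stem cell factor receptor gene Kit and Cd48, an antigen that progenitors carry and long-term HSCs lack, had log2 changes of 0.23 and 0.23. The other 6 averaged under 1 FPKM, as given above for the genes that define long-term HSCs. The part of stem cell markers in the Ly6a difference was not tested.

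Ly6a and Ly6e are known as interferon-induced genes. Of 16 other interferon-induced genes fixed, 13 were tested, 10 rose, 1 fell and 2 did not pass (median log2 change 0.45), of which 1 passed the minimum only through MHCII-hi, and they summed to 127.5 to 138.4 FPKM in MHCII-hi and 90.41 to 92.86 FPKM in MHCII-lo libraries. Irf1, a transcription factor of the interferon response, stood at 24.28 ± 0.618 FPKM in MHCII-hi and 10.87 ± 0.686 FPKM in MHCII-lo. The antiviral GTPase gene Mx1 stood at 4.54 ± 0.132 FPKM in MHCII-hi and 1.81 ± 0.221 FPKM in MHCII-lo, Isg15 at 4.72 ± 0.64 and 2.19 ± 0.356 FPKM, and Cxcl10, a chemokine gene, at 7.87 ± 0.525 and 3.06 ± 0.478 FPKM (SD, n = 3). Bst2 stands both in this list and among the plasmacytoid dendritic cell markers. The part of interferon-induced genes in the Ly6a and Ly6e differences was not tested.

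**Figure D4:**
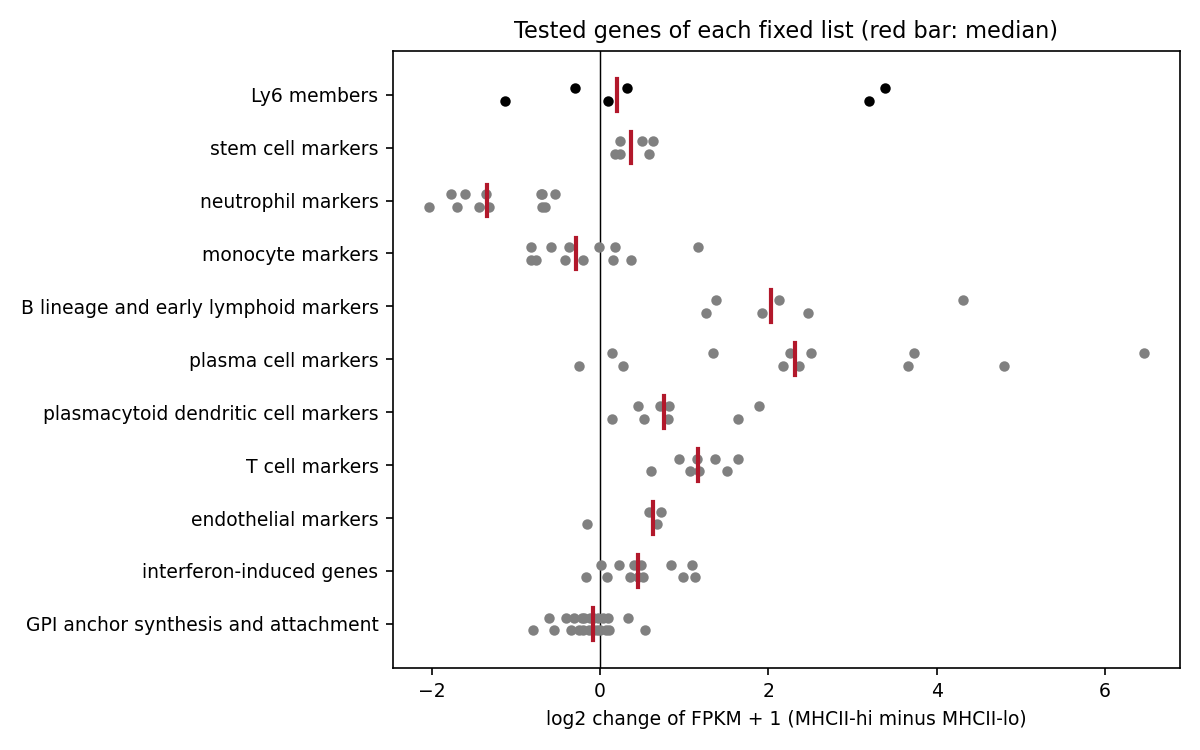
Log2 change (MHCII-hi minus MHCII-lo, horizontal axis) of every tested gene of the Ly6 members (black) and of 10 fixed lists (grey), with the median of each list as a red bar. The Ly6 members span from Ly6g at -1.13, within the range of the neutrophil markers, to Ly6a at 3.38. Ly6a lies above all 6 tested stem cell markers and all tested genes of the other lists, except some B lineage and plasma cell markers.

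Genes that build and attach the GPI anchor, which most Ly6 proteins need to stay on the surface, had mostly small differences. Of 27 fixed, 25 were tested, 8 fell, 1 rose and 16 did not pass, with a median log2 change of -0.09. The 8 lower of 25 are near the background of 33.1% of all genes called lower. The 1 higher of 25 is a smaller share than the 25.5% of all genes called higher. The direction of this list depended on scaling, with 1 higher and 11 lower (median -0.18) under quantile normalization but 4 higher and 4 lower (median 0.05) when scaled without immunoglobulin genes. Piga, the X-linked gene of the first step of anchor synthesis, stood at 5.37 ± 0.367 FPKM in MHCII-hi and 10.05 ± 0.225 FPKM in MHCII-lo (log2 change -0.80, limma adjusted p = 2.58e-05). Pigx stood at 8.98 ± 0.451 and 13.65 ± 0.463 FPKM, and Pigo, which rose, at 5.53 ± 0.197 and 4.17 ± 0.221 FPKM in MHCII-hi and MHCII-lo libraries (SD, n = 3). Pigg had a log2 change of -0.41 (limma adjusted p = 0.0124). Of 20 Ly6/uPAR genes fixed outside the cluster, 13 were measured and 3 were tested. Plaur, the urokinase receptor, fell slightly, to 53.06 ± 1.76 FPKM in MHCII-hi against 58.13 ± 1.35 FPKM in MHCII-lo (log2 change -0.13, limma adjusted p = 0.0132), but was at 0.04 when scaled without immunoglobulin genes. Ly6g5b and the complement inhibitor gene Cd59a did not pass.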

How the data were processed

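Each library has 1 table of values by gene symbol. The headers name no unit; the deposited values were read as FPKM made by the authors, because library sums lay at 332354 to 383658 and the smallest steps depended on gene length. The submitters' processing notes name fastp, HISAT2, StringTie and GRCm38 (mm10); their versions and settings, and the annotation, were not given in the sources used here. RNA came from sorted cells and libraries were stranded, per the labels' protocols.

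Of rows sharing a symbol, the one with the highest mean was kept (70 of 30803 rows dropped). Libraries were grouped by their labels. The test was limma 3.58.1 (R 4.3.3) on log2(FPKM + 1), with a variance trend and no covariate, over genes averaging 1 FPKM or more, two-sided, called at a Benjamini-Hochberg adjusted p under 0.05. It was also run on simulated data with independent noise, and the outcome is not given here. Such data cannot show whether the spread among these libraries is technical. An FPKM value is relative to its library's total, so abundant transcripts lower all others. Depth was estimated from steps of 1 fragment in single-exon genes. Between replicates of a group, the median squared log difference was 2.62 to 3.01 times that of counting noise. Library preparation alone could also give this spread. Each library counts as 1 sample because the labels number it so. Coordinates and transcripts come from GENCODE M21 (GRCm38) and promoters from RefSeq (GRCm38.p6), aligned with Biopython 1.88. Estimated fragments use the exon length of all transcripts and cover counting only.

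The members, gene lists and tests were chosen with earlier results of these data known. Genes named are the 7 members, the genes of the cluster list, up to 4 called genes per list by smallest p, the 5 tested genes nearest to Ly6a, Ly6c2 and Ly6g (no predicted genes, clones, pseudogenes or immunoglobulin segments), and the nearest tested gene on each side of the cluster. A gene that this rule names is not reported here. Ly6a2, H2-Ab1, S100a8, Gm17189 and genes named for not passing or below the minimum were chosen after their values were seen. Alternatives tried were the replicate number as a block, leaving out each library, pseudocount 0.1, no minimum, a minimum of 5 FPKM, quantile, upper-quartile and immunoglobulin-free scaling, no trend, and Ly6c1 with Ly6c2 summed. A sum that also takes in Ly6a, and list counts under each scaling, were added after seeing the data.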

Additional observations from a re-analysis of the deposited data

How the results depend on the processing

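Ly6a and Ly6d stayed higher, and Ly6g, Ly6c2 and Ly6a2 lower, in MHCII-hi cells past the limma threshold under every alternative that kept them as a row. Over these the log2 change was 3.33 to 3.78 for Ly6a, 3.11 to 3.86 for Ly6d, -1.22 to -0.96 for Ly6g, -0.77 to -0.13 for Ly6c2 and -1.17 to -0.62 for Ly6a2. With 1 library left out, the ranges were 3.33 to 3.43 for Ly6a, 3.11 to 3.36 for Ly6d, 0.31 to 0.34 for Ly6e, -0.072 to 0.26 for Ly6c1, -0.33 to -0.28 for Ly6c2 and -1.16 to -1.10 for Ly6g. Ly6e passed under 15 of 16 alternatives and turned to -0.044 with quantile normalization; the cause was not tested. Ly6c1 passed under none of 14, and turned to -0.072 without MHCII-lo replicate 2. Ly6a, Ly6c1 and Ly6c2 as 1 row gave -0.13 (limma adjusted p = 0.00314).

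Over all genes, 3084 were higher and 4009 lower in MHCII-hi cells (43.5% of calls higher). A minimum of 5 FPKM, which tests fewer genes, gave 1792 higher. Upper-quartile scaling gave 2405 lower (61.8% of calls higher), and scaling without immunoglobulin genes gave 4901 higher and 2131 lower (69.7% higher); the cause was not tested. The replicate block gave 2856 higher and 3782 lower and changed no member's call. List counts under the 3 scalings were added after seeing the data: the neutrophil (12 of 12 lower), B lineage (6 of 6 higher) and T cell (8 of 8 higher) counts were the same under each. Of these 6 B lineage genes, 3 passed the minimum only through MHCII-hi, so their direction was set beforehand. Counts of other lists moved. Monocyte markers went from 4 higher and 7 lower to 5 higher and 6 lower under upper-quartile scaling. Interferon-induced genes called higher went from 10 to 9 with quantile normalization and to 11 with upper-quartile scaling. Creld2 was not called under upper-quartile or immunoglobulin-free scaling, nor Cd48 with quantile normalization (0.04). Deviations of same-numbered libraries of the 2 groups from their group means had correlations of -0.092, -0.0036 and -0.0347. With 3 libraries per group, these values cannot show whether same-numbered libraries came from the same mice. Depth limits Ly6k and the MHCII-lo levels of Ly6d most.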

Other observations

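Within the chromosome 15 cluster, 3 tested genes that are neither members nor in the fixed lists also fell in MHCII-hi cells. The pseudogene Gm5960, between Ly6c1 and Ly6c2, stood at 11.0 ± 0.922 FPKM in MHCII-hi and 17.4 ± 1.85 FPKM in MHCII-lo libraries (log2 change -0.61, limma adjusted p = 9.78e-04). The non-coding gene Gm39556, before Ly6e, stood at 3.08 ± 0.161 and 5.25 ± 0.947 FPKM in MHCII-hi and MHCII-lo libraries (log2 change -0.60, limma adjusted p = 0.00359). Them6, before Slurp1, stood at 5.41 ± 0.74 FPKM in MHCII-hi and 7.96 ± 1.33 FPKM in MHCII-lo libraries (SD, n = 3; log2 change -0.48, limma adjusted p = 0.0158). The pseudogene 9030619P08Rik, after Ly6f, did not pass, at 4.72 ± 0.739 FPKM in MHCII-hi and 3.73 ± 0.19 FPKM in MHCII-lo. Of the stretches of 50 bases in the annotated Ly6a2 transcripts, 9.58% occurred in another gene. These genes were chosen after their values were seen.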
